A study of Homo sapiens with 13 samples.

Results

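RTN1 and 9 further genes that mark neurons and neuroendocrine cells were examined in the accessible chromatin of 2 small cell lung cancer (SCLC) lines, H82 and H146. The 10 genes were RTN1, UCHL1, ENO2, STMN2, ELAVL3, ELAVL4, NEFL, NEFM, TUBB3 and DCX, chosen by name out of 20033 protein-coding gene entries of GENCODE release 44 (hg38). Each gene was measured over its transcription start site (TSS, 1 kb to either side) and over its locus, meaning the gene body with 50 kb to either side. ATAC-seq, which inserts adapters where the Tn5 transposase can reach the DNA, was performed on both lines, which are established and carry the wild-type genotype label. H82 had 3 untreated and 3 treated samples and H146 had 4 untreated and 3 treated samples, and treatment was FHD-286, an inhibitor of the SMARCA4 and SMARCA2 ATPases, at 100 nM for 14 days. Treated and untreated cells were kept frozen before the assay, and the H146 libraries came from 2 sequencing batches, 3 controls in the one and the remaining control with the 3 treated samples in the other.

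The data examined are 1 list of accessible regions per line, in which the regions called in all samples of that line, treated and untreated, were merged. H82 had 206927 regions over 5.41% of the genome and H146 had 174093 over 4.49%, so a somewhat higher share in H82 was the background for every gene. The lists hold no reads, scores or samples, so depth was unknown, no value has a replicate error, and every difference below is a description of 2 lists with no test. The effect of FHD-286 could not be separated from the untreated state. A gene without a listed region had none called in any sample of the line, which does not show closed chromatin. Differences in DNA copies, depth and number of libraries between the lines cannot be told apart from differences in accessibility. Of the markers of SCLC, the TSS of NEUROD1, the factor of the SCLC-N subtype to which H82 belongs, had a region in H82 alone (7865 bp), while INSM1, SYP, CHGA, POU2F3 and YAP1 had TSS regions in both lines. Their widths differed most at SYP (3687 bp in H82, 1027 bp in H146) and, the other way, at POU2F3 (641 and 2762 bp). In the same order they were 3684 and 3930 bp at INSM1, 2454 and 2528 bp at CHGA, and 1760 and 1596 bp at YAP1.

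The 10 genes encode parts of the neuronal cell body and its extensions: a reticulon of the endoplasmic reticulum, abundant cytosolic enzymes, RNA-binding proteins, neurofilament subunits and proteins of the microtubules. In cells outside the nervous system many such genes are held down by the repressor REST, which binds a long DNA word called RE1. In neurons and neuroendocrine tumours, basic helix-loop-helix factors such as NEUROD1 bind short E-box words near genes of this kind.

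Sequences from the loci are shown because they were listed as accessible in 1 or both lines and because they hold the words searched for. They were read from hg38 and are printed 5′ to 3′ on the strand of the gene, in lower case, with capitals marking the words CAGATG (on either strand, so also CATCTG) and CAGCTG. Each is the stretch of 100 bases richest in these words within the regions searched, taken outside untranslated sequence, and among equals the first was kept. For stretches of 1 line, the regions of the locus listed in that line alone were searched. For stretches of both lines, shared regions of the H146 list (RTN1) or the H82 list (DCX) were searched, without those at the gene's own TSS. The pair from the RTN1 locus compares a stretch listed in both lines with one listed in H82 alone, and both lay outside the gene. The first was past its end, 304858 to 304957 bp after the TSS, and the second upstream, at -28698 to -28599 bp. The ELAVL4 stretch lay in an intron and was listed in H82 alone. The ELAVL3 stretch lay upstream of the gene and was listed in H146 alone. The DCX stretch lay in an intron and was listed in both lines with 3 CAGCTG words.
RTN1, both lines, chr14:59565819-59565918, minus strand: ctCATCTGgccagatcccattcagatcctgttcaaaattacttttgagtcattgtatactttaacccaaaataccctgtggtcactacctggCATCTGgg
RTN1, H82 alone, chr14:59899375-59899474, minus strand: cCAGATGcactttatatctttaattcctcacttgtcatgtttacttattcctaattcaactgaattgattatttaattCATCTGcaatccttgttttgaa
ELAVL4, H82 alone, chr1:50117530-50117629, plus strand: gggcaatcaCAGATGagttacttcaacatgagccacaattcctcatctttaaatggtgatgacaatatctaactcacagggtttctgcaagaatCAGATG
ELAVL3, H146 alone, chr19:11491028-11491127, minus strand: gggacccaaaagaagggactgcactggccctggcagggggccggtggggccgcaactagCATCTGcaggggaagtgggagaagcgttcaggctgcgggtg
DCX, both lines, chrX:111377295-111377394, minus strand: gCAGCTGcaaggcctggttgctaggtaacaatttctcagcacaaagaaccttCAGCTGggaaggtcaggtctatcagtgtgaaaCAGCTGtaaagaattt

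The RE1 word was searched as CAGCACC, 2 free bases and GGACAG, on both strands. Capitals mark it in the following stretches of 59 bases: an exact word in an intron of TUBB3, and a word with 1 mismatch upstream of the ELAVL3 TSS, both inside regions of both lines. The 250 bases before the RTN1 TSS, a site listed in both lines, are shown for the gene whose lists differed most, and none of the words was in them.
TUBB3, RE1 word, chr16:89926484-89926542, plus strand: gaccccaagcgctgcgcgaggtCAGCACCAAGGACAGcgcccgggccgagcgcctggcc
ELAVL3, RE1 word with 1 mismatch, chr19:11481945-11482003, minus strand: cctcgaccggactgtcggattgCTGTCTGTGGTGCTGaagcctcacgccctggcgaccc
RTN1, promoter, chr14:59870777-59871026, minus strand: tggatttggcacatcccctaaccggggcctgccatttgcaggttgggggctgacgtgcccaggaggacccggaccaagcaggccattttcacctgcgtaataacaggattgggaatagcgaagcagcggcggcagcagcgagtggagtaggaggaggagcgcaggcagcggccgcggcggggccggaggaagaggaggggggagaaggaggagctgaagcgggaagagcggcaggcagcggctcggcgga

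At the start sites the 2 lines were alike for most of the genes. A TSS region was listed in both lines for 9 of the 10 genes, where 75.4% of all genes had one, in H82 alone for NEFM (5.1% of all genes), and in H146 alone for none (1.86% of all genes). At RTN1 the region was 4316 bp wide in H82 against 2237 bp in H146, and widths in the same order were 2072 and 3224 bp at UCHL1, and 2259 and 2647 bp at ENO2, where the H146 value is the sum of 2 regions (2414 and 233 bp). At the genes for RNA-binding proteins they were 5643 and 5893 bp (ELAVL3) and 1372 and 1468 bp (ELAVL4). The ELAVL4 TSS used here is the start of a transcript not annotated as protein-coding. Its region also lay within 1 kb of the AGBL4 TSS in both lines. The microtubule genes gave 6455 and 5039 bp (TUBB3), 3269 and 3540 bp (STMN2), and 1940 and 1515 bp (DCX). NEFL had 2051 bp in H82, in 2 regions, and 1028 bp in H146. The TSS region was thus at least 1.5 times wider in H82 at 2 of the 9 genes, RTN1 and NEFL (13.2% of all genes with a region in both lines), and in H146 at 1, UCHL1 (6.91%). At DCX the region lay inside the gene and did not reach the TSS base itself, since it began 155 bp after it in H146 and 418 bp after it in H82.

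**Figure D1:**
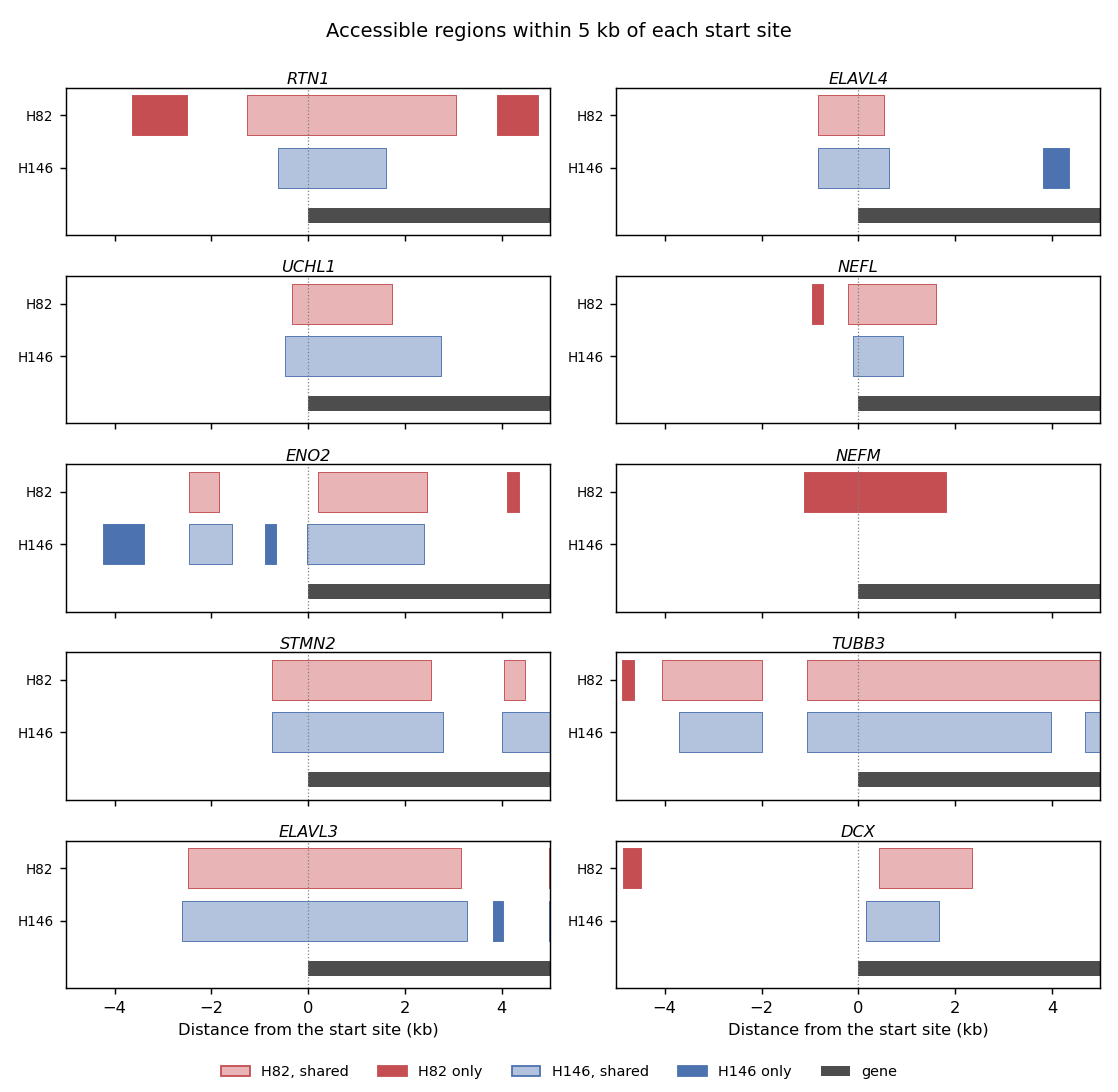
Accessible regions within 5 kb of the TSS of each gene (x axis, kb along transcription) in H82 (red) and H146 (blue), pale where they overlap a region of the other line, with the gene as a grey bar. NEFM has a TSS region of 2935 bp in H82 and none in H146, and the other 9 genes have one in both lines.

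Most alternative start sites were also listed in both lines. Of the 85 distinct annotated transcript starts of the 10 genes, 66 had a region within 1 kb in both lines, 11 in H82 alone, 0 in H146 alone and 8 in neither. Over all 146431 such starts of protein-coding genes the shares were 63.1% in both lines, 6.16% in H82 alone and 2.7% in H146 alone. Starts of 1 gene lie close together and share regions, so they are not separate observations. The 11 comprised the 4 starts of NEFM, 3 of RTN1, 3 of ELAVL4 and 1 of ENO2. All 3 starts of STMN2, all 3 of ELAVL3, both starts of NEFL and all 10 of DCX were listed in both lines. For ELAVL4, the start of the reference (MANE Select) transcript lay 84891 bp into the gene and was covered in both lines, by a region of 2644 bp in H82 and one of 2877 bp in H146.

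Over the loci, the genes fell into a few that were covered much more in H82 and a larger number that were not. The covered share is the percentage of bases of the locus that lie inside a region. It was at least 1.5 times higher in H82 at 4 of the 10 genes, RTN1, ELAVL4, NEFL and NEFM, and in H146 at none, where 29.3% and 5.23% of all genes met these limits. The NEFL and NEFM loci overlap and share most of their regions, so they are not separate observations. The number of regions was at least 1.5 times larger in H82 at 5 genes, the same 4 and UCHL1 (30.6% of all genes), and in H146 at 1, ELAVL3 (6.26% of all genes). After each line was divided by its genome-wide number of regions per Mb, 3 genes remained for H82, RTN1, NEFL and NEFM. Over the gene body alone the genes were RTN1, UCHL1, ENO2 and NEFM, so ELAVL4 and NEFL were lost and ENO2 was gained. The share of all genes was not recounted under these settings, so the 30.6% does not apply to them. With 40% of the genes against 29.3% for the covered share, the count of 4 was near the background for a list of 10.

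The median covered share over the 10 loci was 8.09% in H82 and 5.18% in H146, beside 7.52% and 6.15% over all genes. The median of the differences, H82 minus H146, was 1.09 percentage points for the 10 loci and 0.73 for all genes, and 5 of the 10 loci were covered more in H82. That median lay between DCX (-0.21) and ELAVL4 (2.39) and depended on single genes: it was -0.21 percentage points without any 1 of the 5 loci covered more in H82 (RTN1, NEFL, NEFM, TUBB3 or ELAVL4), and 2.39 without any 1 of the other 5. Across all genes, 12769 of 20033 loci were covered more in H82.

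**Figure D2:**
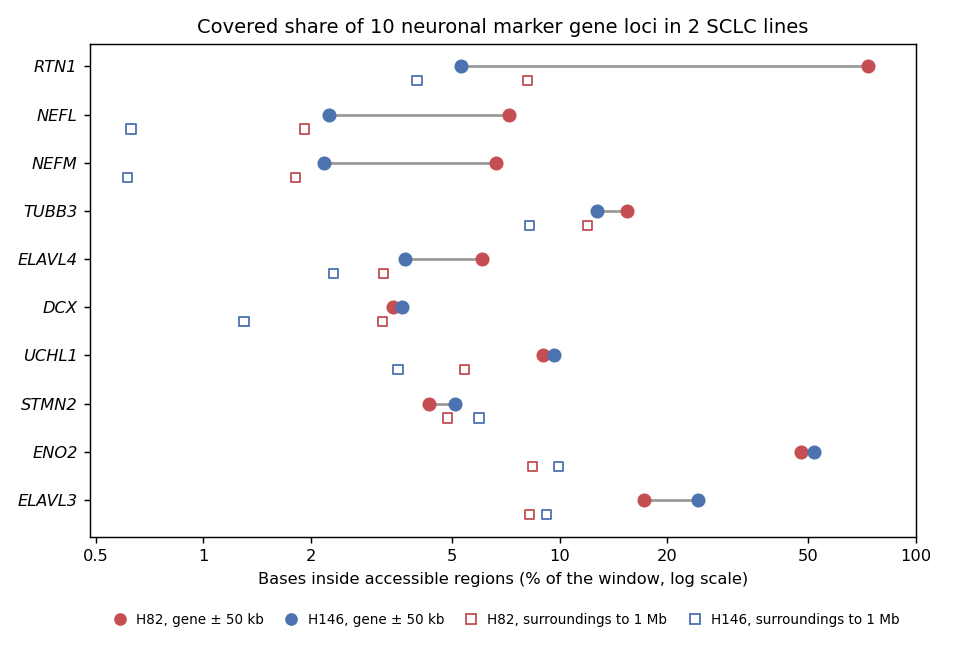
Covered share (%, log scale) of each locus in H82 (red circles) and H146 (blue circles), with open squares for the 1 Mb beyond each end of the locus, ordered by the difference. RTN1 stands at 73.4% in H82 and 5.28% in H146, and ENO2 is near 50% in both lines.

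**Figure D3:**
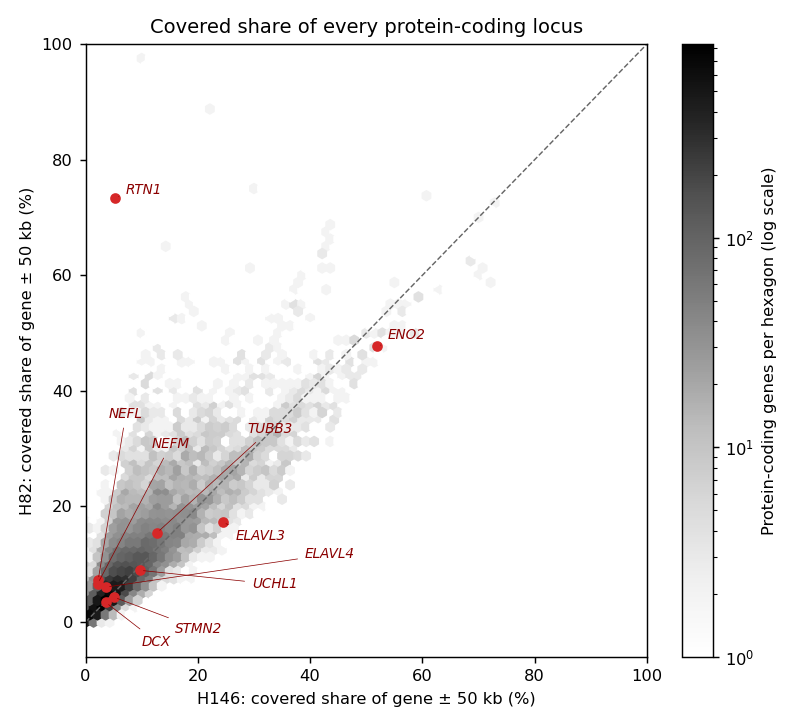
Covered share of the locus in H146 (x axis, %) and H82 (y axis, %) for all 20033 protein-coding genes, as hexagons shaded by the number of genes on a log scale, with the 10 genes as red points and equality as a dashed line. RTN1 lies far above the line, with 18 genes showing a larger difference, and ELAVL3 and ENO2 lie below it.

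RTN1 encodes reticulon 1, a protein that shapes the membranes of the endoplasmic reticulum and is abundant in neurons and neuroendocrine cells. The gene spans bases 59595976 to 59870776 of chromosome 14 on the minus strand. Its locus held 78 regions in H82 and 28 in H146, and regions covered 73.4% of its bases in H82 against 5.28% in H146, a difference of 68.2 percentage points. Only 18 genes of all those measured had a larger difference in favour of H82. The gene body was covered to 77.2% and 4.58%, the 50 kb upstream to 69.9% and 7.27%, and the 50 kb downstream to 56.2% and 7.16%. The difference was therefore not placed at the start of the gene, but ran through the gene and both flanks.

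The regions of H146 lay nearly all inside those of H82. All 28 overlapped an H82 region, 27 of them lay wholly inside one, and 99.4% of their bases were shared. Of the 78 H82 regions, 58 were listed in H82 alone and covered 113957 bp, out of 134793 bp listed in H82 alone over all 10 loci. Over the whole lists, 70.5% of H146 regions and 59.3% of H82 regions overlapped the other line. With 73.4% of the locus covered in H82, the overlap of the H146 regions says little about shared sites. The median width of all regions was 1637.5 bp for H82 against 494 bp for H146, and the widest region reached 34692 bp in H82 and 2237 bp in H146. In H82, 6 regions were 10 kb or wider. The widest lay inside the gene, from 133832 to 168523 bp after the TSS. The centre of 61 of the 78 regions fell in an intron of an annotated gene and the others lay between genes. As regions within 500 bp of each other were joined when the lists were made, such widths describe merged stretches and not single sites.

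Transcripts of RTN1 begin at several sites along the gene. The starts 0 and 143063 bp along it and a cluster of 3 starts from 239962 to 240167 bp had a region within 1 kb in both lines. At the cluster H146 had a region of 2135 bp, from 239099 to 241233 bp, whereas near the start at 143063 bp its region ended at 142517 bp, short of the start itself. The 3 starts nearest the end of the gene, at 263169, 264674 and 265267 bp, had a region within 1 kb in H82 alone.

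**Figure D4:**
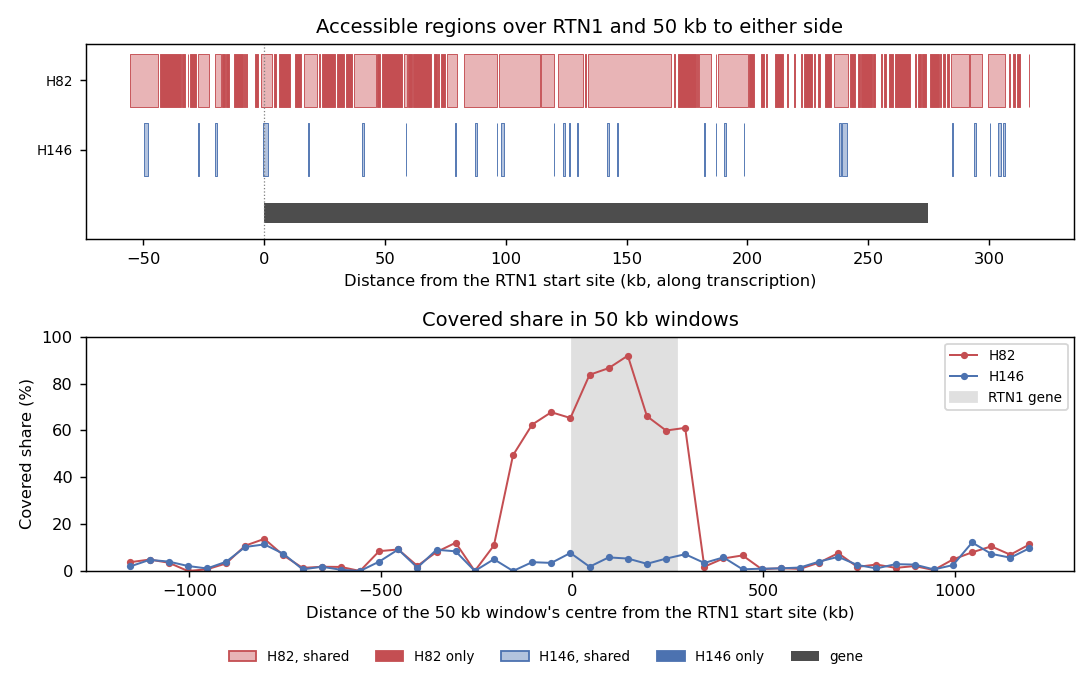
Top, regions over RTN1 and 50 kb to either side by distance from its TSS (kb) in H82 (red) and H146 (blue), pale where shared, with the gene as a grey bar. Bottom, covered share (%) of 50 kb windows around the gene in both lines, in which H82 rises to between 60.0% and 91.9% over 9 windows while H146 stays between 1.82% and 7.70%. A further dense stretch of H82 lies beyond the plotted range.

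The high coverage at RTN1 belonged to a longer stretch. In windows of 50 kb, 9 neighbouring windows from 59550001 to 60000000 of chromosome 14 were each covered to at least 50% in H82, with 60.0% to 91.9% per window against 1.82% to 7.70% in H146. This stretch of 450 kb touched 3 protein-coding genes, RTN1, CCDC175 and LRRC9. The next window was covered to 1.83% in H82 past the 3′ side of RTN1 and to 49.4% on the other side. Leaving out that last window, the 40 windows of the 1 Mb beyond each side had medians of 3.55% in H82 and 3.18% in H146, and 21 of the 40 were covered more in H82. The difference between the lines thus started and stopped within 1 or 2 windows. Chromosome 14 held 28 stretches of such windows in H82, 5 of them of at least 8 windows. Those from 103050001 onwards, all shorter, were also covered to at least 50% in H146. The long stretch nearest to that of RTN1, from 57700001 to 58250000, had 11 windows covered to between 52.3% and 100% in H82 and at most 7.95% in H146.

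The genes whose body, upstream and downstream covered shares in both lines came closest to those of RTN1 were ATAD3C and B3GALT6 on chromosome 1 and NAA30 on chromosome 14. Their distances over these 6 shares were 16.2, 21.3 and 17.2 percentage points. The body of NAA30, from 57390544 to 57415906 on the chromosome of RTN1, was covered to 85.2% in H82 and 5.70% in H146. It lay inside another dense stretch of H82, from 57250001 to 57450000.

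The genes of the 2 cytosolic enzymes did not show such a difference. UCHL1, a ubiquitin hydrolase that makes up a large part of soluble neuronal protein, had 11 locus regions in H82 and 7 in H146, with covered shares of 8.96% and 9.68%. All 7 H146 regions were shared, beside 70.5% of all H146 regions. The 3 regions listed in H82 alone were 432, 470 and 1129 bp wide. One of these lay in the gene body, 7756 to 8187 bp after the TSS. The H146 list made up for its smaller number by width. At the upstream site near the APBB2 start, a single H146 region of 4771 bp overlapped separate H82 regions of 306 and 3222 bp, the latter within 1 kb of that start. At the UCHL1 TSS it had 3224 against 2072 bp. Beyond the locus the order was the other way, with 5.41% covered in H82 and 3.52% in H146 over 1 Mb to each side.

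ENO2, the neuron-specific enolase of glycolysis and a serum marker of SCLC, had the most covered of the 10 loci in H146, with 51.9% over 24 regions, and the second most in H82, with 47.7% over 21 regions. A lower share was found at 99.4% of all genes in H146 and at 98.1% in H82. Much of this belonged to neighbouring genes, as 4 regions in each line reached the TSS of another protein-coding gene, among them regions of 13874 bp in H146 and 11262 bp in H82. The gene body itself was covered to 25.2% in H82 and 24.1% in H146. Immediately upstream, H146 had regions of 849 and 233 bp, from -4229 to -3381 and from -889 to -657 bp relative to the TSS, that H82 lacked.

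ELAVL3 and ELAVL4 encode neuronal RNA-binding proteins of the Hu family, which are targets of antibodies in patients with paraneoplastic disease, and their loci differed in opposite directions. ELAVL3, on chromosome 19, had 19 regions in H82 and 29 in H146, and covered shares of 17.2% and 24.4%. Its gene body had 5 and 11 regions and was covered to 14.4% and 26.3%. All 19 H82 regions were shared, while 12 of the 29 in H146 were listed there alone, with a median width of 354 bp. The shared part was thus 100% in H82 and 58.6% in H146, beside 59.3% and 70.5% over all regions. The TSS region was nearly the same in both lines. Of the 9302 bp that the H146 list covered beyond the H82 list, 5160 bp lay in these H146-only regions and 4142 bp came from shared regions that were wider in H146. Only 1.39% of all genes had a lower difference, H82 minus H146, than the -7.17 percentage points of ELAVL3.

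ELAVL4, on chromosome 1 from 50024029 to 50203772, had 20 regions in H82 and 13 in H146, and covered shares of 6.05% and 3.67%. Each line had 10 regions that overlapped those of the other, so 10 were listed in H82 alone and 3 in H146 alone. The widest H82-only regions lay in introns of the second part of the gene, 2164 bp wide at 132246 to 134409 bp after the TSS and 2770 bp wide at 171639 to 174408 bp. Past 116126 bp after the TSS, the H146 list held no region before one at 227502 bp. H82 had 5 regions between these points, including both of the wide ones. The H82 region at 93476 to 93942 bp holds the ELAVL4 sequence printed above.

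**Figure D5:**
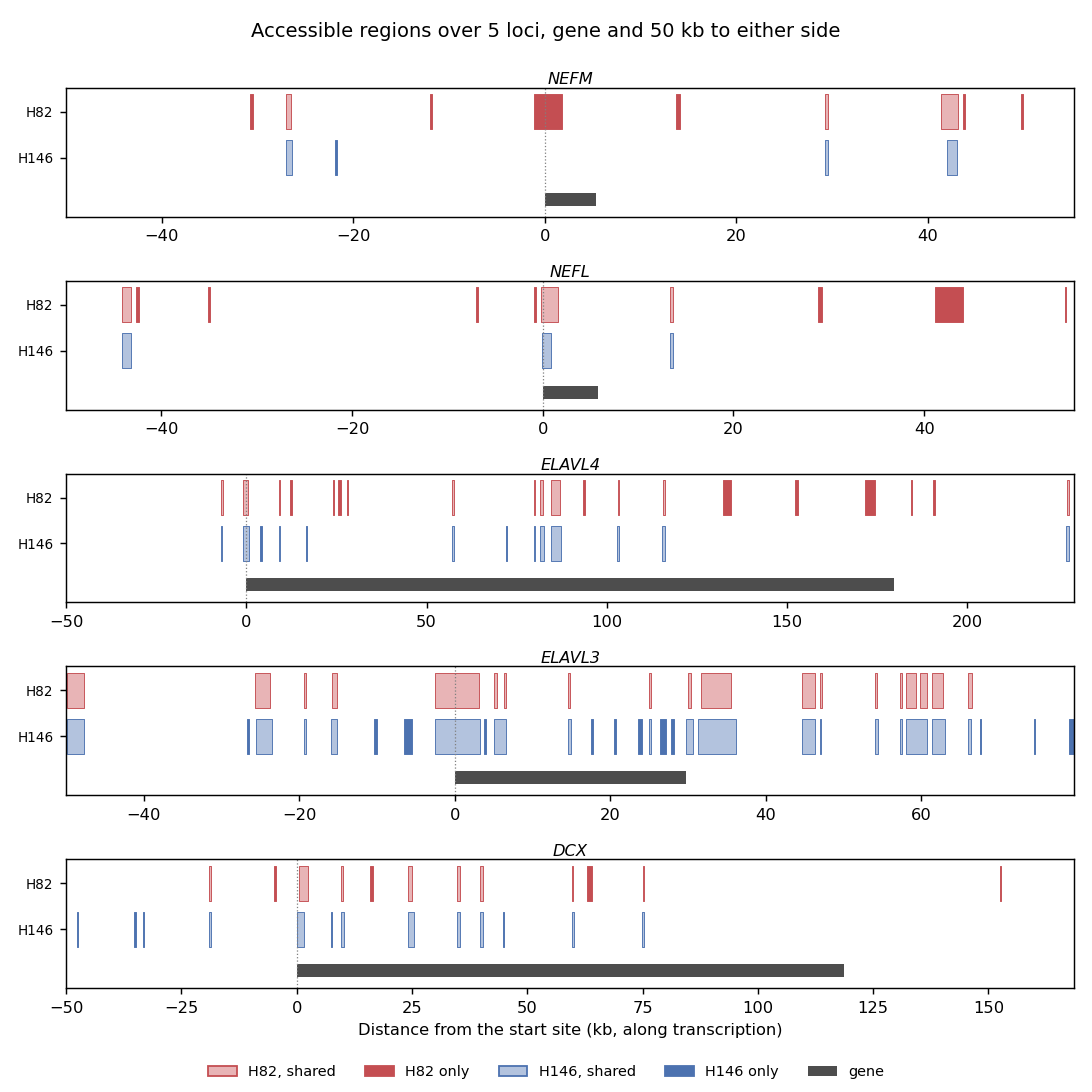
Regions over 5 loci by distance from the TSS (kb, along transcription) in H82 (red) and H146 (blue), pale where they overlap the other line, with the gene as a grey bar. NEFM and ELAVL4 carry H82-only regions, the 12 H146-only regions of ELAVL3 are narrow, and DCX has 8 shared regions in each line.

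NEFL and NEFM encode the light and medium subunits of neurofilaments, the intermediate filaments of axons, and lie next to each other on chromosome 8. NEFM had a TSS region of 2935 bp in H82, from -1116 to 1818 bp relative to the TSS, and no region within the gene in H146. Its locus held 9 regions in H82 and 4 in H146, covering 6.64% and 2.18%. NEFL had a TSS region in both lines, and its locus held 10 and 3 regions covering 7.23% and 2.25%. All 3 H146 regions of the NEFL locus were shared (1 upstream, 1 at the TSS and 1 downstream), beside 70.5% of all H146 regions. The H82-only regions there included the NEFM start.

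The surroundings of both neurofilament genes differed by a like factor. Over 1 Mb beyond each end, the NEFL surroundings were covered to 1.92% in H82 and 0.626% in H146, a ratio of 3.07, beside a ratio of 3.22 for the locus. For NEFM the ratio was 2.97 in the surroundings and 3.05 in the locus. The low level in H146 was therefore not limited to the 2 genes, and its source was not tested.

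Among the microtubule genes no locus reached a 1.5-fold difference in either direction. TUBB3, the neuronal class III beta tubulin, had 16 and 13 regions and covered shares of 15.5% in H82 and 12.8% in H146. A single H82 region of 6455 bp, from -1058 to 5396 bp relative to the TSS, took in 2 H146 regions of 5039 and 459 bp that started and ended within it. STMN2, a stathmin of growing axons that binds tubulin dimers, had 7 and 8 regions and shares of 4.31% and 5.08%. Its TSS region began at -741 bp relative to the TSS in H82 and at -757 bp in H146, and an upstream region of 942 bp had the same ends in both lists.

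DCX, the doublecortin of migrating young neurons, binds and stabilises microtubules. It had 12 and 13 regions and shares of 3.40% in H82 and 3.61% in H146. In each line 8 of these were shared, 66.7% in H82 and 61.5% in H146, beside 59.3% and 70.5% over all regions. Its surroundings were covered to 3.19% in H82 and 1.30% in H146, a ratio of 2.45, whereas the locus ratio was 0.94. UCHL1 showed the same order, with 1.54 in the surroundings and 0.93 in the locus. In the surroundings the ratio was 2.04 for RTN1, where they include the rest of the 450 kb stretch, 1.38 for ELAVL4, 1.45 for TUBB3, 0.90 for ELAVL3, 0.85 for ENO2 and 0.82 for STMN2.

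With each region counted once over the 10 loci, 104 of 196 H82 regions (53.1%) and 109 of 140 H146 regions (77.9%) overlapped the other line, beside 59.3% and 70.5% of all regions of the 2 lists. RTN1 held 58 of the 92 H82-only regions, and at the other 9 loci 84 of 118 H82 regions (71.2%) and 81 of 112 H146 regions (72.3%) were shared. Of the shared ones, 10 had the same start and end in both lists, 3 at ENO2, 2 at UCHL1, 2 at ELAVL3 and 1 each at RTN1, STMN2 and TUBB3. In the whole genome 19180 regions, 15.6% of the shared ones, had the same ends.

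The density of the sequence words in regions listed in H82 alone was lower at RTN1 than at the other loci for 3 of the 4 short words. In the H82-only regions of the 9 other loci, CAGATG occurred 29 times in 20.8 kb (1.39 per kb), beside 1.24 per kb in all H82-only regions of the genome. In those of RTN1 it occurred 80 times in 114 kb (0.70 per kb). The G and C content of the RTN1 regions listed in H82 alone was 40.8%, beside 48.9% for all H82-only regions and 47.5% for those of the other 9 loci. TAATCC, the core word of OTX2, occurred 0.65 times per kb in the RTN1 regions, 0.86 times in the others and 1.26 times in all H82-only regions. TGTTTAC, the FOXA word, occurred 0.22, 0.19 and 0.13 times per kb in the same order. The 0.19 rests on 4 matches, which is few for a density, so the order of RTN1 and the other loci for this word is uncertain. CAGCTG occurred 0.34, 0.91 and 0.81 times. In the 31 H146-only regions, 10.8 kb in all, there were 5 CAGATG and 8 CAGCTG words, which is few for a density.

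Within 1 kb of the TSS, CAGATG was found at 6 of the 10 genes and in 65.4% of all such windows, and CAGCTG at 6 of the 10 and in 64.8%. TAATCC was found at 5 (57.0% of all windows) and TGTTTAC at 2 (18.2%). The exact RE1 word was found at 1 of the 10, NEFM, and in 0.344% of all windows, 69 genes. At NEFM it lay at -927 bp relative to the TSS, inside the region listed in H82 alone. Over whole loci, exact RE1 words were present at 3 places in 4 of the loci, and 6.29% of all genes had one. The NEFM word was also in the NEFL locus, the TUBB3 word printed above began 5114 bp after the TSS in regions of both lines, and a word at -47593 bp from the ELAVL3 TSS was in no region. Of the words with 1 mismatch, the ELAVL3 word printed above, at -935 bp from the TSS, was in regions of both lines. The one in the RTN1 locus, at 285240 bp, was in an H82 region alone. Those of STMN2 (-1564 bp), ELAVL4 (83448 bp) and DCX (36478 bp), and another of ELAVL3 (76843 bp), were in no region. These are matches of letters and not observed binding.

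The base composition of the TSS windows ranged widely. The ratio of observed to expected CpG was lowest at DCX (0.10, with 40.6% G and C) and TUBB3 (0.25) and highest at NEFL (0.90) and NEFM (0.79), beside a median of 0.61 for all genes. NEFM, the only one of the 10 genes without a TSS region in H146, thus had one of the most CpG-rich windows, and DCX, the poorest, was listed in both lines.

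A set of 44 relatives, made of paralogues of the 10 genes and other genes of the neuronal cytoskeleton, gave the context. A TSS region was listed in both lines for 43 of the 44, where 75.4% of all genes had one. In H82 alone it was listed for BASP1, a growth cone protein (410 bp), beside 5.1% of all genes. The locus share was at least 1.5 times higher in H82 for 12 of the 44 (27.3%), beside 29.3% of all genes. In H146 it was for 1 (2.27%, beside 5.23% of all genes), TUBB6, a beta tubulin found outside neurons, which is named here for that value. At any size of difference, 26 of the 44 loci were covered more in H82, beside 12769 of 20033 over all genes. The relatives below were named for the size of their difference. The median locus share was 10.8% in H82 and 8.52% in H146. Of the 3 further reticulons only RTN4, known as Nogo, met the limit, with 14.9% and 5.04%. Among stathmins, STMN1 had 19.4% and 9.38% and STMN3 44.6% and 28.5%. NES, the nestin of neural progenitors, had 45.6% and 23.2%, and ENO1, the widely expressed enolase, 17.8% and 8.20%. BAP1, a nuclear ubiquitin hydrolase, had 15.0% and 6.54%. For TUBB4B, a beta tubulin of many tissues, the shares were 69.9% and 57.2%, with 12 regions in H82 and 22 in H146. Over up to 1 Mb beyond each end, the H82 to H146 ratios were 2.42 (STMN1), 3.26 (ENO1), 2.03 (NES) and 1.58 (TUBB4B). Those of the loci were 2.07, 2.17, 1.97 and 1.22. For RTN4, STMN3 and BAP1 the ratios were 1.48, 1.37 and 1.67 in the surroundings and 2.96, 1.57 and 2.29 in the locus. The source of these differences was not tested.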

How the data were processed

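ATAC-seq was performed on 13 samples, 6 of H82 and 7 of H146. Per the study's methods and the submitters' processing notes, the authors trimmed reads with Trim Galore 0.4.4, aligned them to hg38 with Bowtie2 2.3.4, removed duplicates with Picard, called regions per sample with MACS2, filtered blacklisted regions and merged regions of a line within 500 bp. Their read counts (featureCounts 1.6.0) and DESeq2 test were not used here. The deposited values are region starts, counted from 0, and ends in bp. There were 0 columns of per-sample values left aside, and no p-value or interval was computed.

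The 10 genes, the 44 relatives and the words were chosen with earlier results of these data known. The TSS was the 5′ end of the gene in GENCODE release 44, on the same build as the lists. Regions were shared when they overlapped by at least 1 bp. A fold of 1.5 set the calls. All 10 genes were named. Named relatives, at most 8, were those with a TSS region in 1 line only and then those with the largest difference in locus share. Of genes like RTN1, the 3 nearest were named. Overlaps were computed with Python 3.11.15 and numpy 2.4.6, tested on simulated regions, and checked with bedtools 2.31.1, which differed at 0 of 20033 loci in either line. Sequence was read with pysam 0.24.0. The state of 1 line marker is not reported here.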

Additional observations from a re-analysis of the deposited data

How the results depend on the processing

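The 10 genes were recounted under other windows, flanks, minimum widths and scalings. NEFM remained the gene with a TSS region in 1 line only under windows of 500 bp and 5 kb, with the TSS of any transcript and with regions of at least 500 bp. Of 36 recounts of genes past 1.5-fold or listed in 1 line, 29 were within 1.5 times the reported count and 7 were not. These recounts covered the 10 genes alone, so no share of all genes under the same setting stands beside them. Of 116 recomputed log2 ratios of single genes, 11 moved by over 1.5 times, 6 of them at NEFL, and 0 that were past the limit changed sign. No ratio could be formed for NEFM with a flank of 10 kb or over the gene body alone, where H146 had no region. ELAVL3, with 0 genes reported for a higher covered share in H146, passed the limit (1 gene) with a flank of 10 kb, over the gene body alone and after dividing each line by its genome-wide share. For the number of regions, the count for H146 fell from 1 to 0 with a flank of 100 kb and with regions of at least 500 bp. The count for H82 fell from 5 to 3 with a flank of 100 kb and after dividing by the genome-wide number per Mb, in both cases to RTN1, NEFL and NEFM. ELAVL4 was also lost from the covered share after that scaling and at 100 kb. The cause was not tested. Leaving out each gene in turn, an alternative added after seeing the data, turned the median difference from 1.09 to -0.21 percentage points without any 1 of RTN1, NEFL, NEFM, TUBB3 and ELAVL4 and raised it to 2.39 without any 1 of the other 5. At an overlap of at least 50% of both regions, 74 regions of each line were shared, in place of 104 in H82 and 109 in H146. Allowing 1 mismatch raised the genes with an RE1 word at the TSS from 1 to 2 of the 10, and from 0.344% to 1.72% of all genes.

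No paired analysis was possible because the lists hold no value per sample, and for the same reason leaving out a replicate and the comparison of FHD-286 with untreated cells were not run. With depth unknown, a region missing from a list cannot be told from one below the calling limit.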
